A study of Homo sapiens with 6 samples.

Results

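Tight junction and desmosome genes were followed in SW480, a human colorectal cancer cell line, with and without knockdown of CNOT7. The members were the protein-coding genes in the count table whose symbols name a claudin, an occludin or MARVEL-domain protein, a junctional adhesion molecule, a zonula occludens scaffold, a cingulin, a desmosomal cadherin, plakoglobin, desmoplakin or a plakophilin. The choice used names and not measured values, but it was made with earlier results of these data known. It gave 49 genes of 58735, 36 of the tight junction and 13 of the desmosome. The knockdown group had 3 libraries from cells that carried an shRNA against CNOT7 stably, from a lentiviral vector, and the control group had 3 libraries from SW480 cells labelled as the control. Neither group was irradiated. The deposited labels name SW480, whereas the text of the paper names HCT116 for its RNA sequencing. Grouping followed the labels. Which CNOT7 shRNA was used, and whether the 3 libraries of a group came from separate cultures, is not given in the sources used here, so the p-values measure the spread between these libraries, which may be technical.

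Tight junctions seal the space between neighbouring epithelial cells. Claudins form their strands, and occludin and some of the MARVEL proteins lie in or beside the strands. Junctional adhesion molecules are immunoglobulin-type adhesion proteins, and the zonula occludens proteins and cingulins tie the strands to actin. Desmosomes hold epithelial cells together under strain, with desmoglein and desmocollin cadherins outside the cell, plakoglobin and plakophilins beneath the membrane, and desmoplakin as the link to keratin filaments. CNOT7 is a deadenylase subunit of the CCR4-NOT complex, which shortens the poly(A) tails of mRNAs.

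The libraries held 23788451 to 25982493 counts in the control group and 27523812 to 29104872 in the knockdown group. The targeted gene was checked first. CNOT7 stood at 179 ± 11.3 CPM in control and at 43.1 ± 4.31 CPM in knockdown libraries (SD, n = 3 each), 24.1% of the control level, with a log2 fold change of -2.05 (SE 0.0734) and an adjusted p of 2.64e-12 in the edgeR quasi-likelihood test. CPM are counts scaled to a common library total with TMM factors, and TPM, used below to compare levels between genes, are counts divided by gene length and scaled to a common total. Of 10 colorectal epithelial markers, 7 were abundant enough to be tested, whereas KRT20, CDX1 and LGALS4 were not. Of these 7, 2 were called higher, CDH1 among them, and 2 lower, where 25.2% of all genes tested were called. The summed level of these 10 markers ran from 4988 to 5367 TPM in the control libraries and from 4679 to 5326 in the knockdown libraries. Keratins carried most of this sum, with control means of 2261 TPM for KRT18, 1436 for KRT8 and 1108 for KRT19. KRT5, a keratin of stratified epithelia, was also abundant (3497 ± 115 CPM in control, 2918 ± 138 in knockdown, n = 3 each), and 3 of the 5 stratified markers (KRT14, TP63 and KRT1) were not tested. The 2 that were tested, KRT5 among them, were called lower. The summed stratified list ran from 2837 to 3057 TPM in control and from 2356 to 2639 in knockdown libraries, and its part in the results was not tested. The summed endothelial list stayed at or below 1.41 TPM, the fibroblast list at or below 3.69 and the leukocyte list at or below 7.055 in every library, with COL3A1 and DCN at 0. Mitochondrial ribosomal RNA took 0.99% to 1.05% of the counts in control and 1.44% to 1.58% in knockdown libraries, and its part in the results was not tested.

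The libraries numbered 2 deviated in the same direction in both groups. Among the 24 members at a log2 CPM of 2 or more, the deviation of a library from its group mean was correlated with the GC content of the transcript, with r = -0.81 in control replicate 2 and r = -0.48 in knockdown replicate 2. In the other libraries r lay between 0.01 and 0.65. The 0.65 belonged to knockdown replicate 3 and was larger in size than that of knockdown replicate 2. Deviations from a group mean cancel out, so the values within a group depend on each other. These points share a library, so the values describe the libraries only. GC-rich members such as CLDN4, CLDN7 and PKP3 were low in both libraries numbered 2, and counts of calls are given with and without them.

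The junction genes did not move as a block. Of the 33 members that passed the low-count filter, 6 were higher with knockdown (DSC2, PKP1, TJP3, DSG2, F11R and MARVELD1), 6 were lower (TJP1, CLDN11, CLDN1, PKP2, PKP4 and OCLN) and 21 did not pass an adjusted p of 0.05 in the edgeR quasi-likelihood test with Benjamini-Hochberg adjustment. These 12 calls made up 36.4% of the tested members, where the background over all 17574 genes tested was 25.2% (13.3% higher and 11.9% lower). In these bulk libraries, fewer cells with a transcript and less of it per cell cannot be told apart. The median log2 fold change was 0.077 over the 33 members and 0.0039 over all genes tested. The 2 groups did not overlap in 16 members (48.5%), against 38.8% of all genes tested. With upper quartile factors in place of TMM the split was 8 higher and 5 lower. With cyclic loess offsets it was 9 and 6, and without both libraries numbered 2 it was 9 and 5. Over all genes, upper quartile factors called 2809 of 17574 higher and 1539 lower, with a median log2 fold change of 0.0447. Cyclic loess offsets called 2201 and 1837 of 17574, and the fit without both libraries numbered 2 called 2362 and 2518 of 17782.

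**Figure D1:**
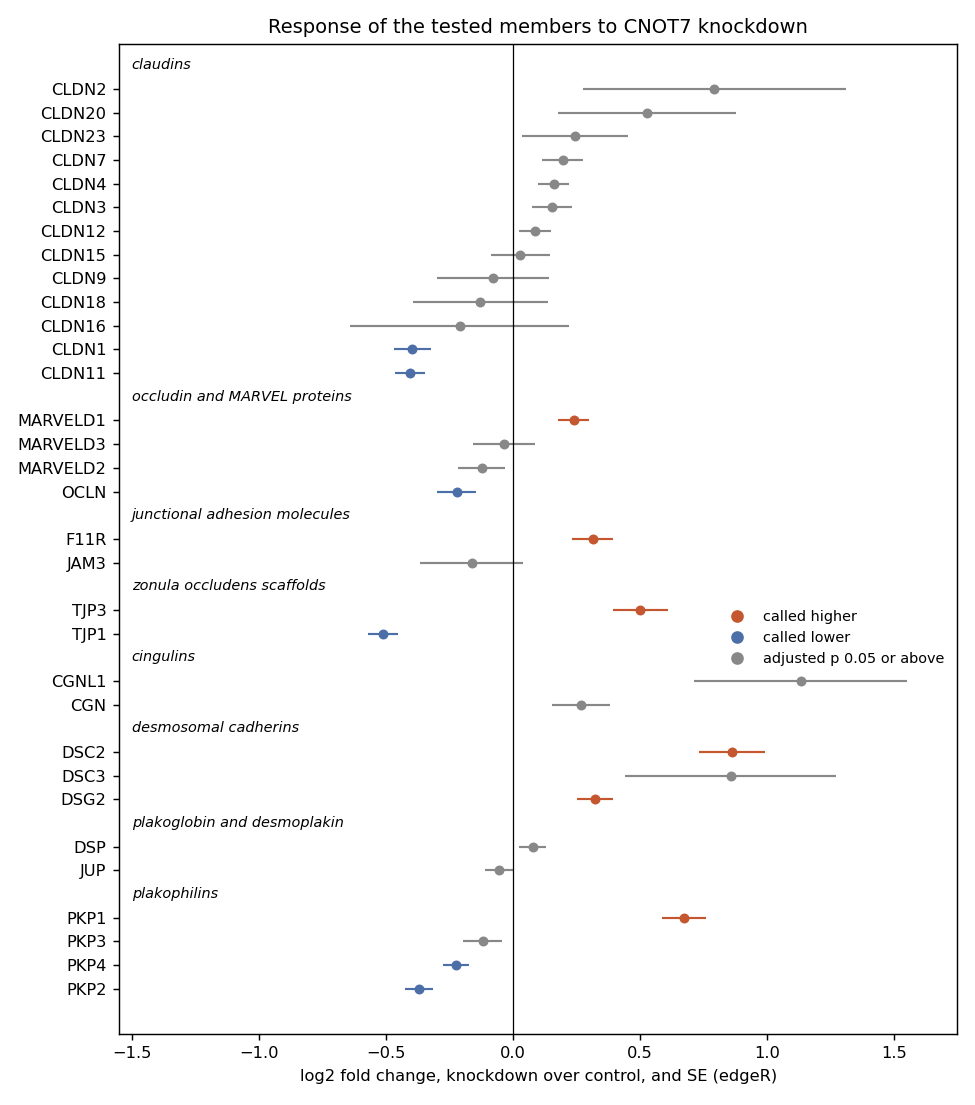
Log2 fold change (knockdown over control, x axis) of 32 of the 33 tested members, grouped by family, with bars for the SE from edgeR (3 libraries per group). Within the zonula occludens scaffolds and the plakophilins, members lie on both sides of 0, and the claudins called lower are CLDN1 and CLDN11.

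The sequences upstream of the start are shown for the called members that rose most and those that fell most, 3 of each, to set starts of genes that moved in opposite directions side by side. They were taken from RefSeq (GRCh38.p14), 250 bases before the start, 5′ to 3′ on the strand of the gene. Capitals mark matches, on either strand, to GGGCGG (a GC box) or CAGGTG (an E-box). The regions are chr18:31102422-31102671 (minus strand) for DSC2, chr1:201283256-201283505 (plus) for PKP1, chr19:3708134-3708383 (plus) for TJP3, chr15:29822469-29822718 (minus) for TJP1, chr3:170418618-170418867 (plus) for CLDN11 and chr3:190322447-190322696 (minus) for CLDN1. The regions of TJP1 and TJP3 lie inside the gene spans given below, in front of internal starts, and the other 4 overlap the outer end of the gene span, since the table also counts transcripts that start farther out. The first 3 belong to genes that rose and the last 3 to genes that fell.
DSC2: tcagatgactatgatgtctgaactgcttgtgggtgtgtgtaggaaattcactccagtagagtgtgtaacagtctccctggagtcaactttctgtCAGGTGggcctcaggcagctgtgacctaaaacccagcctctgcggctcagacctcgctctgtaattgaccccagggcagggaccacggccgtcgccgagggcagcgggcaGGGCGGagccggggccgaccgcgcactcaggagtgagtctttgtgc
PKP1: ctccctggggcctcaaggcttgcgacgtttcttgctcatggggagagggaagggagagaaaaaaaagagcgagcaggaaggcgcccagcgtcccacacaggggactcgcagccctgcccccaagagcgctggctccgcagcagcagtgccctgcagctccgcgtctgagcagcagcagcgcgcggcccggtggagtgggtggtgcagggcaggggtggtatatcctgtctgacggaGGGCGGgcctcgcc
TJP3: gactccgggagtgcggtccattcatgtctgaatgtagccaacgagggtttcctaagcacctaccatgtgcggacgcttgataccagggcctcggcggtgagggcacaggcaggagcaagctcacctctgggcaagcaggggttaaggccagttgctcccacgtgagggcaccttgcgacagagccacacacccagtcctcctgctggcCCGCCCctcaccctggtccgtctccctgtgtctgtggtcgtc
TJP1: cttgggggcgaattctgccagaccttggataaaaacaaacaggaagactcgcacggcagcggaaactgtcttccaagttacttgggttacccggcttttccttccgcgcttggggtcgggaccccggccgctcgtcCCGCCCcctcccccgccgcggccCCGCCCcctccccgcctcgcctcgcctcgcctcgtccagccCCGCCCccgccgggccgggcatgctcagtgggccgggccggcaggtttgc
CLDN11: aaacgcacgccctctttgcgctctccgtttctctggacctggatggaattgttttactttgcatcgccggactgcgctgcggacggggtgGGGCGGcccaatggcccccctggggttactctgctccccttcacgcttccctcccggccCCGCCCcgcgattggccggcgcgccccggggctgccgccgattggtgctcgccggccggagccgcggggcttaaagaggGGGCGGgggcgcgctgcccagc
CLDN1: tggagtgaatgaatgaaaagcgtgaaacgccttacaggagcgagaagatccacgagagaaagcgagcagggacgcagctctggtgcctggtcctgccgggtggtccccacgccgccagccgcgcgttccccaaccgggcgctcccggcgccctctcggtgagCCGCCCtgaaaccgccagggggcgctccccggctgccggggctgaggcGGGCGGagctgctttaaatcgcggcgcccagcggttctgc

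All 6 regions held at least 1 GC box, DSC2, PKP1 and TJP3 with 1 each, CLDN1 with 2, and TJP1 and CLDN11 with 3 each. The E-box in front of DSC2 was the only other match among the 5 words searched. Of the 33 tested members, 25 had a region in the RefSeq table, and the GC box occurred in 19 of these 25, in 5 of 5 called higher and in 5 of 5 called lower. It occurred in 42.5% of 34943 regions of the same length over all genes. CAGGTG occurred in 5 of the 25 members (17.5% of all regions) and TGANTCA, the AP-1 word, in 2 (6.59%). Neither AACCGGTT, the GRHL word (0.114% of all regions), nor GGAATG, the TEAD word (11.9%), occurred in any of the 25. A match describes these letters in this window and is not a binding site.

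In the zonula occludens family, TJP1 fell and TJP3 rose. Gene positions are those in the count table, on GRCh38. TJP1 (ENSG00000104067, chr15:29699367-29968865) encodes the scaffold that binds claudin tails and actin. Its level was 305, 345 and 318 CPM in the control libraries and 231, 236 and 212 CPM in the knockdown libraries. All knockdown libraries lay below all control libraries, and the fold was 0.701, with a log2 fold change of -0.51 (SE 0.0593) and an adjusted p of 6.81e-06 (edgeR). TJP3 (ENSG00000105289, chr19:3708109-3750813) encodes the third family member. TJP3 gave 9.07, 7.65 and 8.14 CPM in control and 11.99, 11.02 and 12.2 CPM in knockdown libraries. The groups did not overlap and the fold was 1.42, with a log2 fold change of 0.50 (SE 0.108) and an adjusted p of 0.00234 (edgeR).

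On the per-length scale (TPM), TJP1 made up 91.8% ± 0.925 of the summed zonula occludens level in control and 86.1% ± 1.44 in knockdown cells (SD, n = 3). TJP3 went from 6.33% ± 0.868 to 11.97% ± 1.07, with no overlap between the groups for either gene. TJP1 thus remained the main family member in every library. The family sum itself was lower in knockdown cells, at 86.4 ± 2.87 TPM against 112 ± 5.91 TPM in control. The share of TJP3 therefore rose by more than its level, which went from 7.06 ± 0.663 to 10.3 ± 0.710 TPM.

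The plakophilins showed the same kind of split. PKP1 (ENSG00000081277, chr1:201283452-201332993), best known from the desmosomes of stratified epithelia, had 13.4, 12.3 and 13.2 CPM in control libraries and 20.4, 20.7 and 21.3 CPM in knockdown libraries. Every knockdown library was above every control library, by 1.60-fold between the groups (log2 fold change 0.67, SE 0.0862, adjusted p = 1.94e-05, edgeR). PKP2 (ENSG00000057294, chr12:32790745-32896840), a plakophilin of simple epithelia and heart, had 209.6, 222 and 209 CPM in control and 166, 172 and 157 CPM in knockdown libraries. It fell to 0.774 of control without overlap (log2 fold change -0.37, SE 0.0549, adjusted p = 9.04e-05, edgeR). PKP4 (ENSG00000144283, chr2:158456964-158682879), also called p0071 and found at adherens junctions as well, had 251, 261 and 251 CPM in control and 218, 224 and 212 CPM in knockdown libraries. PKP4 was lower in each knockdown library, at 0.857 of control (log2 fold change -0.22, SE 0.0509, adjusted p = 0.00371, edgeR). PKP3 had 133 ± 12.4 CPM in control and 123 ± 12.8 CPM in knockdown cells with overlapping groups, and its log2 fold change of -0.12 (SE 0.0768) did not pass (adjusted p = 0.288, edgeR). With GC content offsets, chosen after the data were seen, PKP3 was called lower at -0.11 (edgeR adjusted p = 0.0179).

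Per length, PKP1 was the smallest part of the summed plakophilin level and went from 2.22% ± 0.0629 in control to 4.08% ± 0.09 in knockdown cells (SD, n = 3). PKP2 went from 32.2% ± 1.66 to 28.6% ± 1.91, also without overlap. PKP3 and PKP4 held 37.3% and 28.3% of the control sum and overlapped between the groups. In the zonula occludens and plakophilin families, the called member that rose was less abundant than those that fell. The log2 CPM was 3.34 for TJP3 and 4.09 for PKP1, and 8.10, 7.56 and 7.88 for TJP1, PKP2 and PKP4. Over all genes tested, the median log2 fold change was 0.122 at log2 CPM 0 to 3. It was -0.0177 at 3 to 6 and -0.055 at 6 and above. The part of abundance in the split was not tested.

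Of the 7 desmosomal cadherins, 3 were tested, and their log2 fold changes were positive. DSC3, 1 of these, passed the filter through the knockdown group (below), so its sign is not read as support for a shared direction. Of the 3, 2 were called, where 25.2% of all genes tested were called. DSG2 (ENSG00000046604, chr18:31498043-31549008), the desmoglein of simple epithelia, held 96.9% ± 0.116 of the summed cadherin TPM in control cells. DSG2 gave 79.6, 93.3 and 84.3 CPM in control and 107, 116 and 99.4 CPM in knockdown libraries. The groups were separate and differed 1.25-fold (log2 fold change 0.32, SE 0.0702, adjusted p = 0.0025, edgeR). DSC2 (ENSG00000134755, chr18:31058840-31102522), the desmocollin of simple epithelia, had the largest log2 fold change among the called members. Its values were 4.40, 4.47 and 3.75 CPM in control and 8.02, 7.14 and 7.79 CPM in knockdown libraries. The lowest knockdown library was above the highest control library, with a fold of 1.82 (log2 fold change 0.86, SE 0.130, adjusted p = 1.06e-04, edgeR). DSC2 was still a small part of the cadherin sum, 2.36% ± 0.264 in control and 3.40% ± 0.418 in knockdown cells (TPM, SD, n = 3).

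DSC3 lies in the same cadherin cluster on chromosome 18 and was close to the filter, at 0.356 ± 0.145 CPM in control and 0.642 ± 0.156 CPM in knockdown cells. Its log2 fold change of 0.86 (SE 0.414) did not pass (adjusted p = 0.145, edgeR). It reached the filter level in 1 of 3 control and 3 of 3 knockdown libraries, so its presence among the tested genes depended on the knockdown group. The other cluster genes were not tested. DSG1 had 0 to 15 counts, DSG4 had 0 to 8 and DSC1 had 0 to 1 per library, and DSG3 had 0 in every library. The cluster therefore held both called genes and genes with next to no counts.

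Desmoplakin and plakoglobin, which the other desmosome proteins bind, were not called. DSP had the highest level per length of all members, 192 ± 4.38 TPM in control and 208 ± 11.1 TPM in knockdown cells, and its log2 fold change was 0.08 (SE 0.0514, adjusted p = 0.30, edgeR). JUP, which encodes plakoglobin, had 136 ± 7.39 CPM in control and 131 ± 4.74 CPM in knockdown cells (log2 fold change -0.05, SE 0.0579, adjusted p = 0.555, edgeR). Over the desmosome, 5 of 9 tested members were called, 3 higher and 2 lower, where 25.2% of all genes tested were called. The summed desmosome level was 680 ± 12.2 TPM in control and 678 ± 17.2 TPM in knockdown cells, with overlapping groups.

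Of the 13 tested claudins 2 were called, both lower (15.4%, against 25.2% of all genes tested). With upper quartile factors or cyclic loess offsets CLDN4 and CLDN7 were also called, in the higher direction. CLDN11 (ENSG00000013297, chr3:170418865-170454733), a claudin best known from myelin and testis, had 81.5, 79.6 and 82.7 CPM in control and 60.1, 61.3 and 62.8 CPM in knockdown libraries. Its groups were far apart relative to their spread, with a fold of 0.756 (log2 fold change -0.40, SE 0.0581, adjusted p = 6.36e-05, edgeR). Of the exonic bases of CLDN11, 18.3% are shared with AC026316.5 on the same strand. CLDN1 (ENSG00000163347, chr3:190305701-190322475), a sealing claudin of many epithelia, had 42.6, 45.5 and 41.0 CPM in control and 30.8, 34.3 and 33.1 CPM in knockdown libraries. All knockdown libraries were below the control libraries, at 0.760 of control (log2 fold change -0.40, SE 0.0726, adjusted p = 6.52e-04, edgeR). Together with the levels of the others, CLDN11 went from 16.4% ± 0.246 to 12.1% ± 0.479 and CLDN1 from 8.84% ± 0.690 to 6.58% ± 0.555 of the summed claudin TPM (SD, n = 3).

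CLDN4, CLDN7 and CLDN3, which are also abundant, had positive log2 fold changes that missed the threshold. CLDN4 and CLDN3 are neighbours on chromosome 7 and, with CLDN7, are typical claudins of simple epithelia. CLDN4 had 153 ± 9.71 CPM in control and 171 ± 9.64 CPM in knockdown cells (log2 fold change 0.16, SE 0.0611, adjusted p = 0.0638, edgeR), and its libraries did not overlap. CLDN3 had 21.8 ± 1.08 CPM in control and 24.3 ± 0.814 CPM in knockdown cells (log2 fold change 0.15, SE 0.0789, adjusted p = 0.171, edgeR), also without overlap. CLDN7 had 68.4 ± 6.13 CPM in control and 78.3 ± 8.89 CPM in knockdown cells (log2 fold change 0.20, SE 0.0817, adjusted p = 0.0914, edgeR), with overlapping groups. CLDN4 and CLDN7 are GC-rich and were lowest in both libraries numbered 2. Without these libraries both passed, with log2 fold changes of 0.15 and 0.22 (edgeR adjusted p = 0.0138 and 0.0063), and with GC content offsets in all 6 libraries they also passed, at 0.17 and 0.21 (edgeR adjusted p = 3.21e-04 and 0.00603). These alternatives were chosen after the data were seen. With single libraries left out, CLDN4 was called in 1 of 6 fits and CLDN7 in 2 of 6. Without control replicate 2 alone neither passed, at log2 fold changes of 0.107 and 0.126 (edgeR adjusted p = 0.235 and 0.282).

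The remaining tested claudins were not called. CLDN12 had 105 ± 8.46 CPM in control and 111 ± 3.87 in knockdown cells, and CLDN15 had 9.21 ± 0.710 and 9.40 ± 0.988. CLDN23 had 2.53 ± 0.549 CPM in control and 2.998 ± 0.690 in knockdown cells, CLDN9 had 2.31 ± 0.110 and 2.18 ± 0.655, and CLDN18 had 1.34 ± 0.141 and 1.22 ± 0.303. CLDN20, CLDN16 and CLDN2 stayed under 1.4 CPM in every library, with control and knockdown means of 0.638 and 0.914 for CLDN20, 0.434 and 0.373 for CLDN16, and 0.278 and 0.495 for CLDN2. CLDN2 reached the filter level in 1 control and 2 knockdown libraries, and CLDN16 in 2 of each. The summed claudin level was 478 ± 14.5 TPM in control and 504 ± 30.7 TPM in knockdown cells, with overlapping groups.

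Among occludin and the MARVEL proteins, MARVELD1 rose and OCLN was lower. MARVELD1 (ENSG00000155254, chr10:97713173-97718152), a membrane protein with a MARVEL domain like that of occludin, had 76.9, 70.5 and 73.1 CPM in control and 82.6, 86.3 and 91.3 CPM in knockdown libraries. The groups did not overlap (fold 1.18, log2 fold change 0.24, SE 0.0617, adjusted p = 0.00842, edgeR). OCLN (ENSG00000197822, chr5:69492292-69558104), which encodes occludin, had 25.6, 28.1 and 26.2 CPM in control and 23.3, 23.2 and 22.1 CPM in knockdown libraries. Its knockdown libraries were below all control libraries, but its call was the weakest of the 12 (fold 0.858, log2 fold change -0.22, SE 0.0771, adjusted p = 0.0435, edgeR). The call was lost in 10 of the 17 alternatives, among them the fits without control replicate 1, 2 or 3 (edgeR adjusted p = 0.06, 0.138 and 0.102) and without knockdown replicate 1 or 3 (0.0839 and 0.112). MARVELD2 (tricellulin), a neighbour of OCLN on chromosome 5, had 16.1 ± 1.06 CPM in control and 14.8 ± 0.916 in knockdown cells, and MARVELD3 had 6.77 ± 0.508 and 6.61 ± 0.459, and neither was called.

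Of the junctional adhesion molecules, F11R (ENSG00000158769, chr1:160995211-161021348), which encodes JAM-A, was called higher. It had 23.5, 21.8 and 25.1 CPM in control and 27.2, 30.9 and 29.3 CPM in knockdown libraries. The groups were separate (fold 1.24, log2 fold change 0.31, SE 0.0815, adjusted p = 0.00879, edgeR). AL591806.3 shares 36.6% of the exonic bases of F11R on the same strand, so the counts of F11R are uncertain to that extent. JAM3 had 3.06 ± 0.333 CPM in control and 2.72 ± 0.737 in knockdown cells and was not called. Other members overlap genes on the same strand (CLDN12 over 16.3% and CLDN7 over 10.8% of exonic bases) or on the opposite strand (MARVELD3 over 18.1%, JAM3 over 8.53%, PKP4 over 4.39% and DSG2 over 2.76%). Since the kit did not mark strand, reads in these parts cannot be told apart from those of the partner gene.

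The cingulins, which link tight junctions to the actin cytoskeleton, were not called, although both had positive log2 fold changes. CGN had 10.8 ± 0.492 CPM in control and 13.1 ± 1.91 CPM in knockdown cells (log2 fold change 0.27, SE 0.113, adjusted p = 0.095, edgeR), and its knockdown replicate 2 (10.9 CPM) lay within the control range. CGNL1 had 0.389, 0.172 and 0.399 CPM in control and 0.958, 0.652 and 0.537 CPM in knockdown libraries, without overlap (log2 fold change 1.13, SE 0.421, adjusted p = 0.0581, edgeR). With GC content offsets, chosen after the data were seen, both were called higher (edgeR adjusted p = 0.0247 for CGN and 0.034 for CGNL1), and without both libraries numbered 2 CGN was (0.0254) and CGNL1 was not (0.181). CGNL1 reached the filter level in 2 of 3 control and 3 of 3 knockdown libraries. Among all 2665 tested genes with a log2 CPM below 0, to which CGNL1, DSC3, CLDN2, CLDN16 and CLDN20 belong, the median log2 fold change was 0.16 and 61.5% were above 0, so low genes as a whole were shifted upward.

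**Figure D2:**
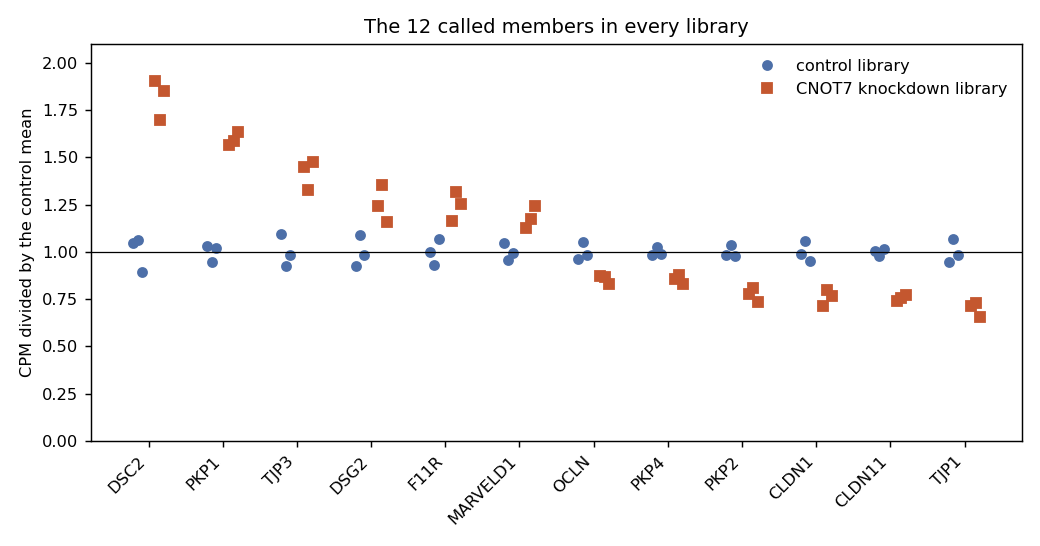
CPM of each library divided by the control mean of the gene (y axis, linear, from 0) for the 12 called members, with circles for the 3 control and squares for the 3 knockdown libraries. The knockdown libraries of DSC2 sit at 1.70 to 1.91 times the control mean, and those of TJP1 at 0.66 to 0.73 times.

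The remaining 16 members failed the filter, and none exceeded 15 counts in a library. CLDN10, CLDN17, CLDN22, CLDN25, CLDN8 and DSG3 had 0 counts in every library. Of the others, JAM2 had 2 to 11 counts, CLDN6 had 5 to 8, CLDN5 had 1 to 3, CLDN24 had 0 to 3, CLDN14 had 0 to 2 and CLDN34 had 0 to 4. CLDN19, a claudin of the kidney, had 1, 0 and 0 counts in control and 7, 6 and 2 counts in knockdown libraries, too few for a test. Stratified-type cadherins (DSG1, DSG3, DSG4 and DSC1) were at or near 0, and DSC3 was close to the filter. KRT5, KRT10 and PKP1 were present, whereas KRT14, TP63 and KRT1 were too low to be tested.

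Per length, the tested members spanned 0.133 TPM (CGNL1) to 192 TPM (DSP) in control cells. PKP3 (126 ± 12.3 TPM) and CLDN4 (117 ± 7.58 TPM) followed DSP, and their values overlapped within their SDs. PKP2 (109 ± 3.81), TJP1 (103 ± 6.34), JUP (98.8 ± 5.89), CLDN7 (98.6 ± 9.29) and PKP4 (95.9 ± 2.33) came next, and neighbours in this order differed by less than the sum of their SDs except for DSP and PKP3. The summed tight junction level was 722 ± 13.3 TPM in control and 743 ± 34.0 TPM in knockdown cells, with overlapping groups. Neither junction type thus had separate summed levels in the groups. By family, only the claudin sums overlapped. The sums were lower in knockdown cells for the zonula occludens scaffolds (ratio to control 0.771) and the plakophilins (0.898). They were higher for the other families, from 1.06 for plakoglobin and desmoplakin to 1.31 for the desmosomal cadherins.

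The CCR4-NOT complex can be brought to mRNAs by proteins that bind AU-rich elements in the 3′ untranslated region, so the length of that region and the number of ATTTA words in it were listed for the members. The median length was 2749 bases in the 6 members called higher (128 to 9175), 1954 bases in the 6 called lower (752 to 4433) and 843 bases in the 21 not called, against 972 bases over 13690 tested genes with a transcript model. The median number of ATTTA words was 3.5 in the members called higher (0 to 23), 7 in those called lower (1 to 16) and 2 in those not called, against 1 over the 13690 genes. DSC2 had the most, with 23, and TJP3 and PKP1 had 0. The ranges of the members that rose and fell overlapped, and no test was made.

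The 6 lists of neighbouring genes were read in the same fit. In the adherens junction and nectin list, 3 of 14 tested genes were higher and 3 lower. Over all genes tested, 13.3% were higher and 11.9% lower. CDH1, which encodes E-cadherin, rose from 23.6 ± 1.65 to 33.5 ± 1.79 CPM (log2 fold change 0.51, SE 0.0794, adjusted p = 1.55e-04, edgeR). NECTIN3, a nectin adhesion receptor, fell from 7.43 ± 0.247 to 3.89 ± 0.550 CPM (log2 fold change -0.93, SE 0.137, adjusted p = 8.17e-05, edgeR), and PDLIM1 fell from 74.0 ± 1.71 to 51.9 ± 1.65 CPM (log2 fold change -0.51). The catenins CTNNA1, CTNNB1 and CTNND1 were not called.

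In the polarity and junction scaffold list, 3 of 22 tested genes were higher and 3 lower, where 25.2% of all genes tested were called. PARD3B, AMOTL2 and MPP5 had the largest changes, with log2 fold changes of -1.21, -1.15 and -0.77 and edgeR adjusted p of 4.26e-05, 1.21e-10 and 7.80e-08. MPP5 encodes PALS1, which joins the Crumbs complex to PATJ at tight junctions, and its level went from 158 ± 9.20 to 92.5 ± 4.68 CPM. AMOTL2, an angiomotin family scaffold, went from 242 ± 6.22 to 109 ± 4.06 CPM. These falls were larger than that of any member.

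Of 10 tested genes for other junction membrane proteins, 1 was higher and 2 were lower, where 25.2% of all genes tested were called. PERP, a membrane protein of desmosomes, fell from 437 ± 22.7 to 344 ± 15.2 CPM (log2 fold change -0.34, SE 0.0542, adjusted p = 1.60e-04, edgeR). ILDR1, of tricellular junctions, had a log2 fold change of 0.40 (edgeR adjusted p = 0.0287), which was lost without knockdown replicate 1 or 2 or control replicate 1 or 2 (adjusted p = 0.0727, 0.0643, 0.101 and 0.0847). EPCAM was not called.

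In the plakin and cornified envelope list, which also holds keratins, 6 of 8 tested genes were lower and none was higher. Of all genes tested, 11.9% were lower. EVPL (envoplakin, log2 fold change -0.41), MACF1 (-0.33) and DST (-0.31) had the largest changes, with edgeR adjusted p of 0.00308, 1.05e-04 and 0.0016. The count of 6 fell to 3 without knockdown replicate 2, control replicate 1 or control replicate 3, and to 3 with upper quartile factors or cyclic loess offsets. EVPL apart, the tested genes of the list had a log2 CPM of 6 or above, where the median log2 fold change over 3839 genes was -0.055. KRT8, KRT18 and KRT19 of this list, and CDH1 and EPCAM above, are also among the colorectal markers.

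Gap junction genes, which form channels between cells, were higher in 5 and lower in 2 of 11 tested. The shares over all genes tested were 13.3% and 11.9%. GJA5 rose with a log2 fold change of 1.26 (edgeR adjusted p = 0.0173). It had only 0.411 ± 0.166 CPM in control and 0.978 ± 0.182 CPM in knockdown cells, and its call was lost without knockdown replicate 3 or control replicate 1 or 3 (adjusted p = 0.0681, 0.0767 and 0.0832). Of the transcription factors known for junction genes, 3 of 12 tested were higher and none was lower, where 25.2% of all genes tested were called and 13.3% were higher. SNAI1 (0.65), a repressor of CDH1, and the epithelial factors ELF3 (0.56) and EHF (0.45) rose, with edgeR adjusted p of 1.32e-04, 4.20e-04 and 0.00136. GRHL2 and GRHL3 failed the filter, ZEB1 had 23.6 ± 1.97 CPM in control and 22.5 ± 2.82 in knockdown cells and was not called, and ZEB2 and TWIST1 had 0 counts. CDH1 was also higher in the knockdown libraries, and any link between SNAI1 and CDH1 was not tested.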

How the data were processed

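RNA of 3 control and 3 CNOT7 knockdown SW480 libraries was extracted with TRIzol and sequenced on libraries from a kit that does not keep strand. The authors deposited raw counts per gene, without normalization, and a gene length. Per the submitters' processing notes the tools were CASAVA 1.8, fastp, HISAT2 2.0.5, featureCounts 1.5.0-p3 and DESeq2 1.20.0, on GRCh38. All 58735 identifiers, positions and lengths matched GENCODE 29. Unused columns of other samples numbered 0, and 0 counts belonged to rows without a gene.

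Counts were filtered with filterByExpr (17574 genes kept), scaled with TMM and tested with the edgeR 4.0.16 quasi-likelihood test in R 4.3.3, with 3 against 3 libraries, no covariate, Benjamini-Hochberg adjustment and a threshold of 0.05. The SE is the absolute log2 fold change over the square root of F. TPM were computed from counts and deposited lengths. Steps were tested on simulated counts. Replicates differed by more than sampling noise (chi-square per degree of freedom 3.28 to 10.9). Deviations of same-numbered libraries correlated at 0.02, 0.15 and -0.02, the 0.15 being that of the libraries numbered 2. Other pairs ranged from -0.15 to 0.13, and the main fit did not treat the numbers as pairs.

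By rule, every tested member was named, called members with each library, and from each neighbouring list the 3 largest called changes and CDH1. A few genes are not reported here by name, although the counts include them. Members and lists were chosen with earlier results of these data known. Alternatives were DESeq2 1.42.0, other factors and filters, cyclic loess (limma 3.58.1), a replicate block, protein-coding genes, a log2 fold change of 0.5 or more and each library left out. GC content offsets and leaving out both libraries numbered 2 were added after the data were seen. Promoters came from RefSeq, at the start nearest to the GENCODE transcript. Tables used Python 3.11.15, pandas 2.3.3 and numpy 2.4.6, and plots matplotlib 3.10.9. Motifs and lists were given as counts, with no set test.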

Additional observations from a re-analysis of the deposited data

How the results depend on the processing

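The 11 called members other than OCLN kept their direction and their call in all 17 alternative fits, although the highest adjusted p (edgeR or DESeq2) was 0.0488 for F11R and 0.0484 for MARVELD1. OCLN ranged from -0.25 to -0.18 and its adjusted p from 0.00447 to 0.138. CNOT7 ranged from -2.13 to -1.98 without single libraries.

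The main fit did not treat the replicate numbers as pairs. Over all genes it called 4424, and the fit with a replicate block called 6508. The replicate block gave 10 members higher, 12 tight junction members called and 6 junction transcription factors called, and it moved no other count of members by more than 1.5 times. GC content offsets gave 10, 12 and 6, and both together gave 12, 13 and 6. Leaving out both libraries numbered 2 gave 5 transcription factors. Calls over all genes rose too, to 6115 of 13690 with GC content offsets and 6460 of 13690 with both together. Without both libraries numbered 2 they were 4880 of 17782, against 4424 of 17574 in the main fit. The larger counts are therefore not read as results about the members. When calls also needed an absolute log2 fold change of 0.5 or more, 3 members were higher and 1 lower, which were 2 tight junction and 2 desmosome members, and the lists held 3 adherens, 0 other membrane, 0 plakin and 3 gap junction genes. The plakin count was 3 with upper quartile factors and with cyclic loess offsets, and 3 to 6 without single libraries. The member median was 0.011 with no filter. The cause of these shifts was not tested.

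Signs reversed only in members that were not called. CLDN15 was -0.035 with cyclic loess offsets and MARVELD3 0.0057 with upper quartile factors. Without both libraries numbered 2, CLDN18 was 0.041 and CLDN9 0.10. Without single libraries, CLDN15 ranged from -0.031 to 0.11, CLDN16 from -0.40 to 0.055, CLDN18 from -0.32 to 0.043, CLDN9 from -0.34 to 0.10, JAM3 from -0.35 to 0.025 and MARVELD3 from -0.084 to 0.027. TPM over protein-coding genes raised 23 of 33 control levels by more than their SD. At this depth, the 5 tested members with a log2 CPM below 0 had SEs of 0.35 to 0.52, so a change of the size seen in TJP1 was not detectable in them.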
